A study of Homo sapiens with 9 samples.

Results

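LIN28B was profiled as 1 of 10 RNA-binding proteins (RBPs) in 10plex antibody-barcode eCLIP (ABC) of K562 cells. Its members here are the 3 LIN28B libraries, 1 from each of 3 replicate samples, out of 30 libraries of the K562 10plex and 54 in the whole series, and they were chosen by cell line and RBP label. They held 12788, 20695 and 14304 merged peaks, 47787 together, where the 27 libraries of the other 9 RBPs held 701069. K562 is an established human erythroleukemia line. The labels name no treatment. The cells were irradiated with ultraviolet light so that RNA became crosslinked to bound protein, and each lysate was immunoprecipitated at once with 10 antibodies that each carried a DNA barcode. The other antibodies were against RBFOX2, PUM2, DDX3, FAM120A, ZC3H11A, SF3B4, EIF3G, PRPF8 and IGF2BP2. The title of replicate 3 gives K562, but its source name reads K563, and it was used as K562. No gel step removed RNA held by proteins that travel with LIN28B. The sources used here do not say whether the replicates came from separate cultures, so the errors below measure only the spread between these samples. The p-values below come from exchanging the RBP labels among the 10 libraries of each sample. They set LIN28B against the other RBPs in these samples and do not measure the spread between samples. Of 10 erythroid marker genes of K562 cells, all 10 had an exon peak in at least 1 library of every replicate and 6 had one in all 3 LIN28B libraries, among them HBG1, HBG2, HBE1 and TAL1.

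LIN28B is an RNA-binding protein of stem and tumour cells that holds back the maturation of the let-7 family of microRNAs. It carries a cold shock domain, known to contact a GAU-like element in the terminal loop of some let-7 precursors, and a pair of zinc knuckles, known to contact GGAG near the 3′ end of that loop. Precursors held in this way are tailed with uridine by TUT4 or TUT7 and degraded by DIS3L2. LIN28 proteins also bind many mRNAs, where their effect on translation has been reported to go in either direction. In erythroid cells LIN28B is known for favouring fetal globin.

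The hairpins carry the best known LIN28B element, so the loop side of every let-7 family precursor is shown first, 5′ to 3′ and up to 30 bases next to the 3p arm (GRCh38.p14, RefSeq). Capitals mark GGAG and any GAU that ended at least 4 bases before the arm. The 6 precursors that were enriched in all 3 replicates come first.
let-7d, chr9:94178865-94178894, plus strand: agggcaggGAUuuugcccacaaGGAGguaa
let-7f-1, chr9:94176379-94176408, plus strand: gguaguGAUuuuacccuguucaGGAGauaa
let-7g, chr3:52268301-52268330, minus strand: gucuauGAUaccacccgguacaGGAGauaa
let-7b, chr22:46113715-46113744, plus strand: agggcaguGAUguugccccucggaagauaa
miR-98, chrX:53556263-53556292, minus strand: uaggGAUauuaggccccaauuagaagauaa
let-7i, chr12:62603717-62603746, plus strand: ggguugugacauugcccgcuguGGAGauaa
The 6 that were not enriched in all 3 replicates follow.
let-7a-1, chr9:94175984-94176012, plus strand: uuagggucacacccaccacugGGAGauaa
let-7a-2, chr11:122146545-122146567, minus strand: uagaauuacaucaagGGAGauaa
let-7a-3, chr22:46112774-46112799, plus strand: uggggcucugcccugcuaugggauaa
let-7c, chr21:16539860-16539882, plus strand: uagaguuacacccugGGAGuuaa
let-7e, chr19:51692815-51692837, plus strand: gaGGAGgacacccaaGGAGauca
let-7f-2, chrX:53557218-53557245, minus strand: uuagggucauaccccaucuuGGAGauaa
GAU stood in 5 of the 6 enriched precursors and in 0 of the other 6, and GGAG in 4 of 6 and 5 of 6. Both elements stood together in 3, let-7d, let-7f-1 and let-7g. The whole loop side was 32 to 36 bases long in the enriched 6 and 23 to 29 in the other 6. let-7i, enriched with a loop side of 34 bases, had no GAU in the bases shown. In all other hairpins GAU stood with the longer loop side, so GAU and loop length differed at let-7i alone. Neither was tested. Of the other 6, let-7a-1 was enriched in replicates 2 and 3 and let-7f-2 in replicate 3, at 4 reads each. All 12 precursors give a 5p microRNA with the same seed (bases 2 to 8, in capitals), as in let-7a and let-7d.
hsa-let-7a-5p: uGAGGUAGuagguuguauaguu
hsa-let-7d-5p: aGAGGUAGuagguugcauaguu
The hairpins were compared within a family that shares this seed, so the seed could not have separated the enriched hairpins from the others.

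A peak was called enriched where its P was below 0.001 and its fold above 8 over the complement control (CC), the pooled reads of the 9 other antibodies in that sample. Of 1879 annotated hairpins, 65 overlapped a tested LIN28B peak in at least 1 replicate and 21 in all 3. Of these 21, 9 hairpins (42.9%) were enriched in all 3 replicates, 6 of them of the let-7 family. Of the mRNAs with a tested exon peak in all 3 replicates, 46.6% were enriched in all 3, so the share over all hairpins was near that of mRNAs. The other RBPs had between 0 and 3 such hairpins each and none of the let-7 family. These counts are a description, and were not tested.

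The strongest LIN28B signal on a hairpin was at let-7d and let-7f-1, which lie in the cluster of chromosome 9 within the noncoding RNA MIRLET7A1HG. The highest peak on let-7d held 279, 226 and 275 LIN28B reads in replicates 1 to 3, against 34, 28 and 24 reads of the CC. On let-7f-1 the LIN28B reads were 254, 263 and 260, and those of the CC 25, 43 and 41. The log2 fold over the CC, which takes the size of each library into account, was 7.29 ± 0.334 (SD, n = 3) for let-7d and 6.97 ± 0.348 for let-7f-1, so the difference between them was within their spread. The third precursor of this cluster, let-7a-1, had no peak in replicate 1. In each of the other replicates it had 4 reads in an enriched peak, with log2 folds of 4.53 and 4.57.

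The other 4 let-7 family hairpins had fewer reads than those 2, with similar folds. miR-98, in an intron of HUWE1 on the X chromosome, had 41, 39 and 31 LIN28B reads and a log2 fold of 7.20 ± 1.39. let-7b, in MIRLET7BHG on chromosome 22, had 36, 27 and 34 reads and 7.03 ± 0.226. let-7i on chromosome 12 had 36, 33 and 26 reads and 6.91 ± 0.611. In all 3 replicates these hairpins stood below let-7d and let-7f-1 in reads, and their read counts overlapped each other. let-7g, in an intron of WDR82 on chromosome 3, had 34, 23 and 24 reads and 6.44 ± 0.956.

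The remaining copies had few reads or none. let-7f-2, which neighbours miR-98 in HUWE1, had an enriched peak of 4 reads in replicate 3 (log2 fold 5.15) and no peak in the others. No LIN28B peak lay on let-7a-2, let-7a-3, let-7c or let-7e. let-7a-3 shares its host transcript and cluster with let-7b. The smallest peak had 3 reads, and whether a precursor without a peak is present in these cells was not tested. let-7a and let-7f are each made from several loci with the same mature sequence, so reads within an arm that mapped to more than 1 locus were not counted at any. The largest number of reads of another RBP in a peak on a let-7 family hairpin was 17, on let-7f-1, and RBFOX2 had 1 enriched peak on let-7i.

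**Figure D1:**
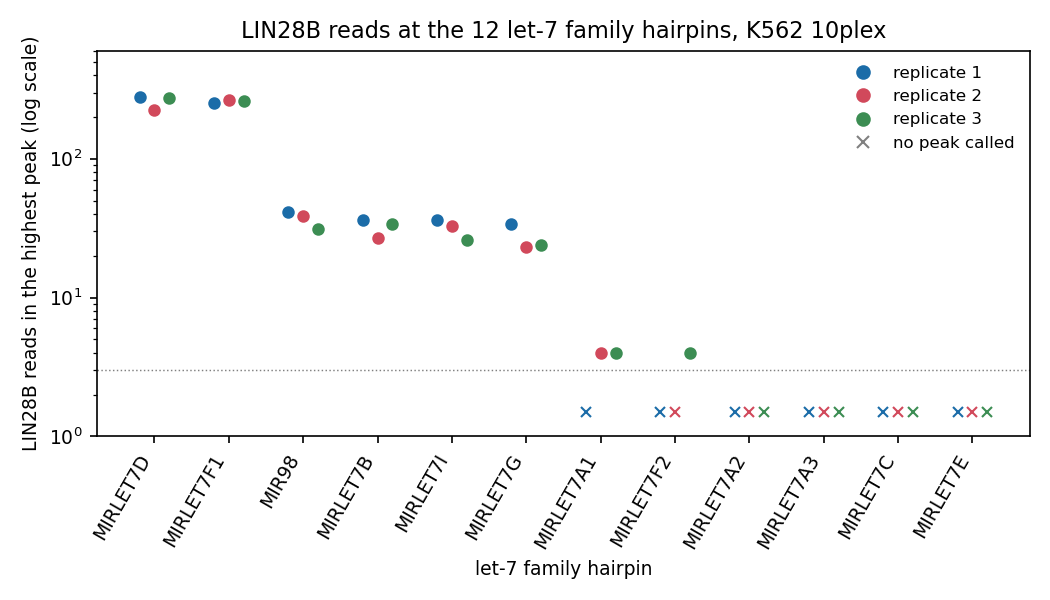
LIN28B reads in the highest peak on each of the 12 let-7 family hairpins (log axis), with 1 point a replicate, crosses without a value where no peak was called and a dotted line at 3 reads, the smallest peak. let-7d and let-7f-1 lie between 226 and 279 reads in all replicates, miR-98, let-7b, let-7i and let-7g between 23 and 41, and the others at 4 reads or without a peak.

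The other 3 hairpins enriched in all replicates had seeds of their own. MIR3620, in an intron of ARF1 on chromosome 1, had 35, 51 and 49 LIN28B reads and a log2 fold of 5.49 ± 0.745. MIR6501, within the coding sequence of SON on chromosome 21, had 12, 17 and 15 reads and 4.90 ± 0.770. MIR19B1, in an exon of MIR17HG on chromosome 13, had 9, 13 and 18 reads and 3.15 ± 0.237, just above the log2 limit of 3, and was not enriched under stricter limits. The other RBPs had 7 peaks on MIR19B1, 1 of them enriched, for RBFOX2. MIR6501 lies in an exon of an mRNA, so its reads cannot be told apart from those of SON mRNA, and the same holds for MIR3620 and ARF1 pre-mRNA. This limit also applies to the enriched let-7 family hairpins. miR-98 and let-7g lie in introns of host genes, and the others in exons of host noncoding RNAs.

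Across the transcriptome, 4816 of 10976 tested LIN28B peaks (43.9%) were enriched in replicate 1, 7232 of 18329 (39.5%) in replicate 2 and 4305 of 14334 (30.0%) in replicate 3, a mean of 5451 ± 1563 (SD, n = 3). The enriched share, 37.8% ± 7.07, was the highest mean of the 10 RBPs, whose other means ran from 11.0% for RBFOX2 to 32.3% for EIF3G. This share was not tested, since the CC of LIN28B is made of the other 9 libraries and each of theirs includes LIN28B. The LIN28B barcode held 5.32% to 5.78% of the reads of its pools. A typical enriched peak was small, with a median of 5, 5 and 6 reads, a median width of 38, 39 and 41 nt and a median log2 fold of 4.54, 4.12 and 4.57. Of the enriched peaks of one replicate, between 32.2% (replicate 2, met by replicate 3) and 53.3% (replicate 3, met by replicate 2) overlapped an enriched peak of another.

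In all 3 replicates, 1432 sites were enriched, and 1310 of them lay in exons of mRNAs of 996 genes. The coding sequence (CDS) held 969 sites (67.7%), the 3′ UTR 271 (18.9%) and the 5′ UTR 70 (4.89%). Distal introns held 58, the parts of introns within 500 nt of an exon but outside the splice sites 14, and exons of noncoding RNAs 37. A site on a hairpin within such an exon was counted with the exon, and hairpins outside exons held 3. Only 264 sites had at least 20 reads in each replicate, and the CDS share was 69.7% in these and 67.2% in the 1168 others. Another RBP was enriched in 2 or more replicates at 2 of the sites, DDX3 at 1 and SF3B4 at 1. Reads of another RBP at a site count in the CC and lower the fold, so this number is low in part by construction.

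LIN28B peaks lay mostly in coding sequence. Of the enriched LIN28B peaks, 62.1%, 63.5% and 56.2% were in the CDS in replicates 1 to 3, a mean of 60.6% ± 3.87 (SD, n = 3), against a mean of 29.6% for the other 9 RBPs. The means of the others ran from 1.02% for FAM120A to 75.9% for PRPF8, a spliceosome component whose peaks overlap the ends of exons. The difference of 31.0 percentage points had an exact permutation p = 0.033 (two-sided, 1000 choices of 1 library a replicate, smallest possible p 0.001), and 0.33 after adjustment over 10 regions, so it did not pass. This test, used for all shares below, draws the libraries of each replicate separately. With the 10 RBPs as the units, where the libraries of an RBP stay together, the smallest possible p is 0.1 and no share could pass. With the region read at the centre base of each peak, PRPF8 fell to 15.9% and LIN28B stayed at 60.5% ± 3.88, above all 27 other libraries, with a difference of 39.8 points and an exact permutation p = 0.001 (adjusted 0.01). No other region passed with either rule. With the regions ranked as near as possible to the labels of the authors, hairpins first, an order chosen after seeing the data, the hairpin share was 0.25 points above that of the others (adjusted exact permutation p = 0.02). The 3′ UTR held 17.5% ± 2.61 of the LIN28B peaks, the 5′ UTR 6.14% ± 1.52, distal introns 9.56% ± 2.44 and hairpins 0.101% ± 0.0337. This hairpin share and its test leave out hairpins within exons, since exons come before hairpins in the order of regions. Peaks on let-7d, let-7f-1, let-7b, let-7i and MIR19B1 were thus counted in noncoding exons, and those on MIR6501 in the CDS.

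**Figure D2:**
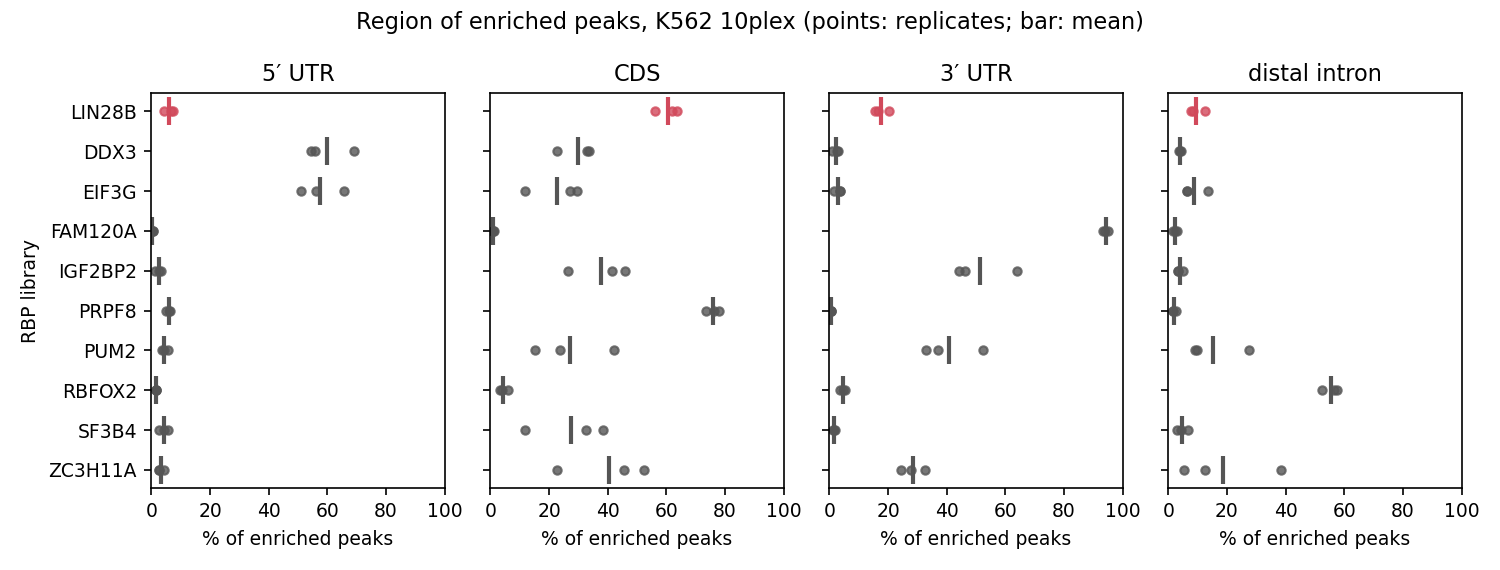
Percent of enriched peaks in each region for the 10 RBPs, with points for the 3 replicates and bars for their means, by the priority order in which a peak that touches an exon counts as exonic. LIN28B has 56.2% to 63.5% of its peaks in the CDS, below PRPF8 and above the means of the other RBPs.

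Along the coding sequence LIN28B peaks were spread over its whole length, with 7.78% to 11.4% of the peaks in each of 10 equal parts over the 3 replicates. The final 1/3 of the CDS held 32.4% ± 0.491 (SD, n = 3) of the LIN28B CDS peaks, 1.37 percentage points below the mean of the other RBPs. Peaks within 100 nt of the stop codon made up 7.60% ± 0.207 of mRNA peaks, and those within 100 nt of the start codon 5.78% ± 1.71. DDX3, an RNA helicase of translation initiation, had 50.1% of its mRNA peaks near the start codon. None of these 3 shares of LIN28B passed the test against the other RBPs (exact permutation p from 0.567 to 0.9, adjusted 0.9 for each).

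GGAG, the zinc knuckle element, was found within 75 nt centred on the peak in 54.2%, 51.2% and 50.6% of the enriched LIN28B peaks (mean 52.0% ± 1.93 SD, n = 3) and in 34.5% for the other 9 RBPs. The difference of 17.4 percentage points passed the exact permutation test (p = 0.009, adjusted 0.0112 over 5 motifs), although DDX3, whose windows were rich in G and C, came close with 51.1% and overlapped LIN28B, its highest library being at 51.8%. The longer GGAGA stood in 20.7% ± 0.225 of LIN28B peaks against 11.9% (adjusted exact permutation p = 0.017), and PUM2, with few peaks, had 21.4%. AAGGAG was less common, in 8.01% ± 0.668 against 3.16%, and the lowest LIN28B library, at 7.57%, stood above the highest of the 27 others, at 6.60%. AAGNNG, which covers AAGGAG, stood in 42.3% ± 0.921 of LIN28B peaks against 26.1%. Motifs were read on the strand of the RNA only, and since GGAGA and AAGGAG both hold GGAG, these comparisons are not independent of each other.

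TGAT, which contains the GAU element of the cold shock domain written as DNA, was also more frequent in LIN28B peaks. It stood in 30.2%, 35.3% and 37.2% of the enriched LIN28B peaks (mean 34.2% ± 3.62 SD, n = 3), against 19.7% for the others, and no library of another RBP reached the lowest of LIN28B, the highest being at 28.8%. For TGAT, for AAGGAG and for the gapped AAGNNG the exact permutation p was 0.001, the smallest possible, and 0.0017 after adjustment. In the wider window of the peak with 50 nt on both sides, GGAG and TGAT no longer passed (adjusted exact permutation p = 0.077 and 0.075), and GGAGA did not pass under the stricter limits of a P below 1e-05 and a fold above 16 (0.116). Without replicate 1 or without replicate 2, GGAG and GGAGA did not pass. GCATG, the RBFOX2 motif counted for comparison, stood in 7.08% ± 0.266 of LIN28B peaks and 48.1% of RBFOX2 peaks. The means of the remaining RBPs ran from 2.88% for EIF3G to 6.59% for ZC3H11A, so LIN28B stood above them for this motif as well. This difference was not tested.

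**Figure D3:**
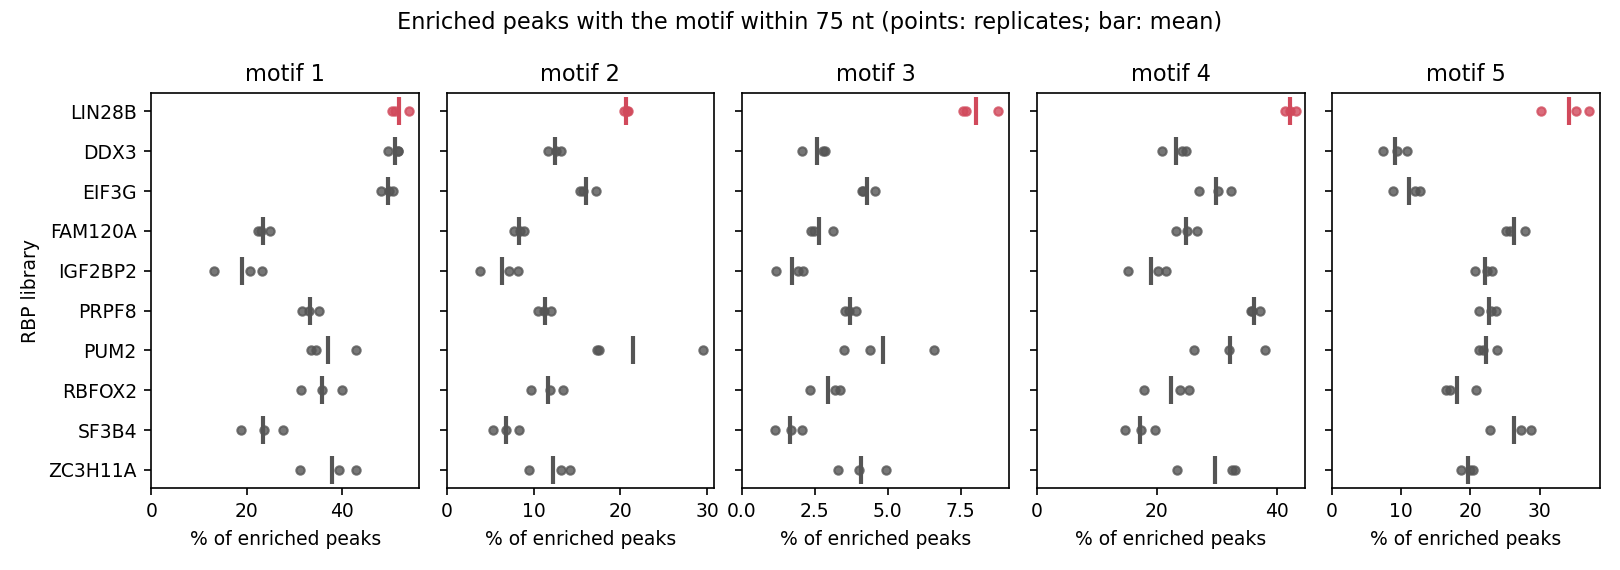
Percent of enriched peaks with a motif within 75 nt for the 10 RBPs, with points for replicates and bars for means; motif 1 is GGAG, motif 2 GGAGA, motif 3 AAGGAG, motif 4 AAGNNG and motif 5 TGAT. The 3 LIN28B points lie above all others for motifs 3, 4 and 5, among those of DDX3 and EIF3G for motif 1 and below one PUM2 library for motif 2.

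LIN28B also had the highest mean share of peaks with GGAG within coding sequence alone, where the order of the other RBPs changed. The nearest were PUM2 at 47.4%, RBFOX2 at 47.3%, ZC3H11A at 46.9%, EIF3G at 45.4% and DDX3 at 45.0%, and the lowest IGF2BP2 at 21.3%. GGAG stood in 52.1% to 54.3% of the enriched LIN28B CDS peaks over the replicates (mean 53.1% ± 1.08) and in 38.6% of those of the others, a difference of 14.6 percentage points (exact permutation p = 0.022). This call was lost under the stricter limits (exact permutation p = 0.218), in the wider window (0.143), with the region at the centre base (0.055) and without replicate 1 or replicate 2. TGAT stood in 36.4% of LIN28B CDS peaks, where the means of the other RBPs ran from 9.93% to 25.8%, and AAGNNG in 45.2%, near the 43.8% of PUM2. In the 3′ UTR, GGAG stood in 48.5% of LIN28B peaks (other RBPs 15.4% to 37.8%) and TGAT in 29.9% (at most 26.4%). The GC content of the LIN28B windows was 51.2%, within the range of the other RBPs from 39.4% for FAM120A to 67.3% for DDX3. GGAG and TGAT stood together in 15.8% of LIN28B windows and in 3.64% to 7.70% for the others, and at least 1 of them in 70.4% against 37.5% to 57.1%. These CDS, 3′ UTR and pair shares other than GGAG in the CDS were not tested.

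When all words of 4 bases were ranked by the LIN28B share over the mean of the other RBPs, words with GAT came first. GATG led with 40.5% against 20.5%, a ratio of 1.97, and TGAT was next with a ratio of 1.73. Of the top 10 words 5 contained GAT, and within the CDS 7 did, of 8 such words in all. GGAG ranked 11 among peaks of all regions, with a ratio of 1.51, and 14 within the CDS. The lowest ratio was that of CGCG. In the shared sites, GGAG stood in 795 (55.5%), TGAT in 496 (34.6%), both in 253 (17.7%) and none of GGAG, TGAT and AAGNNG in 222 (15.5%).

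The motifs were concentrated at the middle of LIN28B peaks. GGAG starts were most frequent in the 10 nt before the middle, with 161 per 1000 peaks, against 74.5 per bin in the outer bins of a window of 100 nt on both sides. The mean of the other RBPs was 82.3 in that bin. AAGNNG was highest in the same bin, at 113 per 1000 peaks against 51.8 in the outer bins. TGAT was about as frequent in the 10 nt before the middle, at 80.8 per 1000 peaks (66.4 to 92.9 over the replicates), as 20 to 11 nt before it, at 81.6 (65.8 to 95.5), against 43.2 in the outer bins. Where GGAG and TGAT shared a window, TGAT came first in 56.1%, 55.1% and 55.9% of the LIN28B windows, and the other RBPs had means of 46.4% to 54.8%, just below the LIN28B mean of 55.7%.

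**Figure D4:**
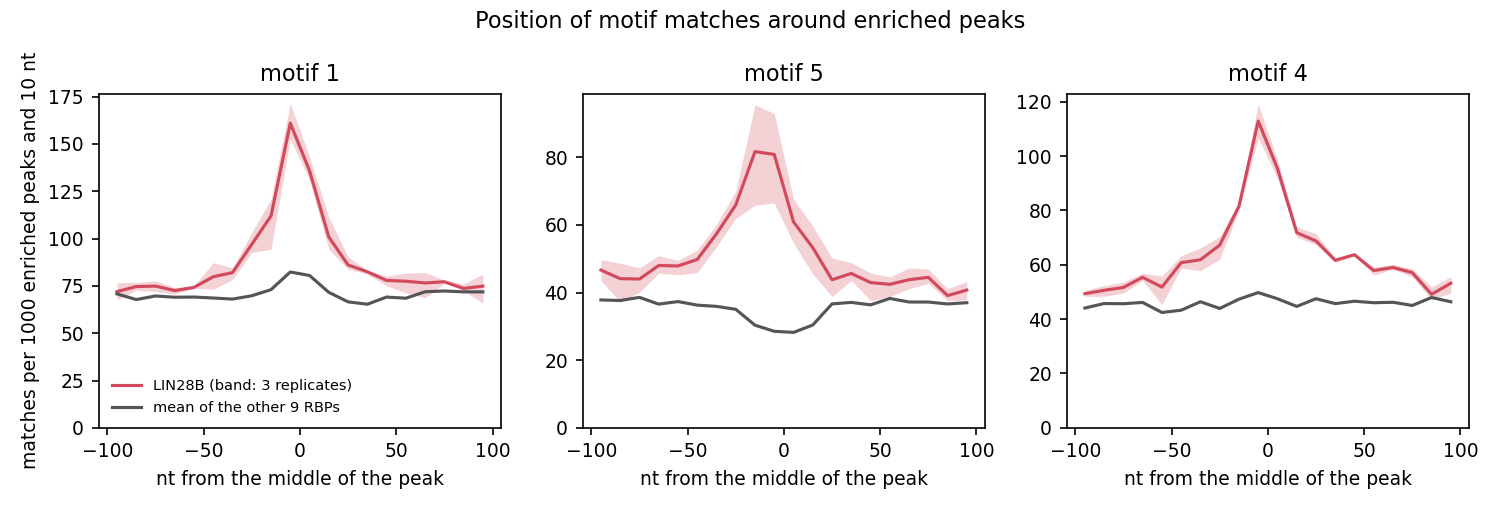
Starts of motif 1 (GGAG), motif 5 (TGAT) and motif 4 (AAGNNG) per 1000 enriched peaks in bins of 10 nt around the peak middle, for LIN28B (line for the mean, band for the 3 replicates) and the mean of the other 9 RBPs. GGAG reaches 161 per 1000 in LIN28B peaks just before the middle, and TGAT 80.8 in the same bin and 81.6 in the bin upstream of it.

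At the gene level, 2485, 3381 and 2212 mRNAs had an enriched LIN28B exon peak in replicates 1 to 3. All 3 replicates shared 1287, which is 46.6% of the 2763 mRNAs with a tested exon peak in each. Of the 996 mRNAs with a shared site, 759 had 1 site and 183 had 2. The 10 mRNAs with the most sites, with ties settled by the mean log2 fold, had 4 to 7, and 44 of their 48 sites lay in the CDS. Long coding sequences offer more room for sites, and the counts were not scaled by length.

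FLNA, which encodes the actin crosslinker filamin A, had the most sites, with 7 in its CDS. Its LIN28B peaks held 273, 384 and 259 reads, and GGAG stood at 3 of the sites. IARS1, the isoleucyl-tRNA synthetase, had 5 CDS sites and 245, 317 and 359 reads, without GGAG at any of them. Both mRNAs were read in every replicate, and the order of the replicates by reads differed between them.

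CHD4, a chromatin remodeller, and NRDC, a metalloprotease, also had 5 CDS sites each, with 181, 385 and 262 reads and 121, 229 and 170 reads. FDFT1, the squalene synthase, had 2 sites in the CDS, 2 in the 5′ UTR and 1 in the 3′ UTR. Of the 9 mRNAs with 4 sites, those with the highest mean log2 fold were PRPF8 (a spliceosome component that is itself among the profiled RBPs), FN1 (fibronectin), PRKDC (a DNA repair kinase, with 1 of its sites in the 3′ UTR) and EIF4B (a translation initiation factor). EIF4B had TGAT at 3 of its 4 sites and GGAG at 1.

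Sites from among those with the highest lowest fold over the 3 replicates are shown with their sequence. They had at least 20 reads in each replicate, and sites at genome sequence that resembles the adapter were left out. By this choice the reads of the CC are few beside those of LIN28B at these sites. Each line gives 30 bases of GRCh38 on the strand of the RNA, with GGAG and TGAT in capitals.
RANBP2, chr2:108731386-108731415, plus strand, CDS: aaaaTGATgttacTGATggaagagcaaaat
USP32, chr17:60183252-60183281, minus strand, CDS: ggattctggcaagGGAGgtgaagaaagtgg
TMEM101, chr17:44012153-44012182, minus strand, CDS: ccaGGAGgGGAGcTGATGATccagctgttc
ETFA, chr15:76283792-76283821, minus strand, CDS: aggcttgaagagtGGAGagaactttaagtt
RPL18, chr19:48616787-48616816, minus strand, CDS: gatgaagcttcctggccgggaaaacaagac
Of the sites shown, RANBP2 and TMEM101 hold TGAT more than once, and RPL18 holds neither element.

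RANBP2, a nucleoporin with SUMO ligase activity, had 118, 145 and 133 LIN28B reads against 14, 19 and 16 of the CC, with log2 folds of 7.10, 7.05 and 7.21. The site lies 355 nt into a CDS of 9675 nt. USP32, a deubiquitinase, had 193, 173 and 128 reads and a mean log2 fold of 7.06. TMEM101, a membrane protein, had 136, 187 and 110 reads and a mean log2 fold of 7.16. These sites were chosen by their lowest fold over the CC. LIN28B reads several times those of the other 9 RBPs combined follow from that choice.

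ETFA, an electron carrier of fatty acid oxidation in mitochondria, had 260, 558 and 192 reads and a mean log2 fold of 7.14. Its site lies in the CDS of the representative transcript, 673 nt from the start codon, and was put in the 5′ UTR by the priority order because of another transcript. The only named site in a 3′ UTR was in TRIM25, an RNA-binding ubiquitin ligase, with 180, 203 and 152 reads and a mean log2 fold of 7.13. CHD7, a chromatin remodeller, had the fewest reads of these sites, 47, 54 and 35, and a mean log2 fold of 7.41.

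Of these sites, the one with the most reads was in RPL18, a protein of the large ribosomal subunit, with 1089, 1078 and 741 LIN28B reads against 127, 140 and 100 of the CC and log2 folds of 7.13, 7.06 and 7.04. A second RPL18 site had 869, 726 and 604 reads and a mean log2 fold of 7.04. The sites lie in neighbouring exons, 221 and 191 nt from the start codon on the spliced mRNA, so a read across the exon junction can count at both, and they are not independent.

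The gene lists below were written with earlier results of these data known and are given by their counts beside the 46.6% over all mRNAs with a tested LIN28B exon peak in all replicates. No list was tested, and reads of near-identical copies and pseudogenes were lost where they mapped to more than 1 locus. The glycolysis list stood highest, with 10 of 15 members (66.7%) enriched in all replicates. In it PKM, the pyruvate kinase of tumour cells, had 4 CDS sites and 330, 487 and 220 reads, and PFKP, a phosphofructokinase, had 3 CDS sites and 57, 65 and 81 reads. The microRNA machinery followed with 4 of 7 members (57.1%), but with 1 of 7 under the stricter limits (14.3%, against 21.1% over all mRNAs). Only ADAR, an RNA-editing deaminase, had shared sites in this list. ADAR had 3 of them and 47, 81 and 57 reads.

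Karyopherins and nucleoporins had 18 of 32 members enriched (56.2%). NUP160, a scaffold nucleoporin, had 3 sites and 305, 490 and 259 reads, and XPOT, the tRNA exportin, had 2. Proteasome subunits had 16 of 29 (55.2%), led by PSMD2 with 3 CDS sites and 83, 151 and 131 reads and PSMC4 with 2, although PSMC4 was not enriched in all replicates over the external background (RNA-seq, in place of the CC). Cytosolic chaperones and the TRiC chaperonin had 9 of 17 (52.9%), with 3 sites in CCT5 and 2 in CCT4, both TRiC subunits. Aminoacyl-tRNA synthetases had 10 of 19 (52.6%), with IARS1, described above, and EPRS1 at 2 sites.

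Near the share over all mRNAs stood translation initiation factors (15 of 31, 48.4%), ER chaperones and the translocon (10 of 21, 47.6%), ZNF genes (13 of 28, 46.4%) and DNA replication and cell cycle genes (12 of 26, 46.2%). EIF4G1, the scaffold of the cap-binding complex, had 3 sites and 571, 1083 and 888 reads. CANX, the ER chaperone calnexin, and SEC63, of the translocon, had 2 sites each. MCM2, of the replicative helicase, had 2 CDS sites, both with GGAG and TGAT, and 68, 81 and 41 reads, and RPA1, a single-stranded DNA binding protein, had 2 sites. Of the zinc finger genes, ZNF496 had 2 sites and ZNF394 had 1.

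Below it stood ribosomal proteins of the cytoplasm (25 of 59, 42.4%), the respiratory chain and ATP synthase (17 of 41, 41.5%), and SR proteins and core splicing factors (12 of 31, 38.7%). RPS18 had 3 sites and RPL18 2. NDUFV1 had 2 sites and NDUFS1 1, both subunits of complex I, and the NDUFS1 site lies at genome sequence that resembles the adapter. SF3B1, a branch point factor, had 3 CDS sites, all with TGAT.

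The lowest shares were in elongation and termination factors (3 of 10, 30.0%), globin switching genes (2 of 8, 25.0%, described below), histones (6 of 26, 23.1%), hnRNP proteins (5 of 23, 21.7%), the profiled RBPs (1 of 8, 12.5%, PRPF8) and actin and tubulin (1 of 9, 11.1%, TUBB). These counts moved with the limits. With a fold above 4, where 55.4% of all mRNAs were enriched, actin and tubulin had 5 of 9 (55.6%), histones 13 of 26 (50.0%), hnRNP proteins 11 of 23 (47.8%), elongation and termination factors 5 of 10 (50.0%) and the profiled RBPs 2 of 8 (25.0%). With the stricter limits (21.1% of all mRNAs) actin and tubulin had 0, hnRNP proteins 2, histones 3, elongation and termination factors 1 and the profiled RBPs 1. The median number of LIN28B reads per mRNA in peaks was 16.3 over all mRNAs. Of these low lists it was 50.3 for actin and tubulin, 49.3 for hnRNP proteins and 34.5 for elongation and termination factors. It was 19.5 for globin switching genes, 12.7 for histones and 12.2 for the profiled RBPs. Glycolysis, the highest list, had 67.7. Whether depth bears on the shares was not tested. HNRNPM with 2 sites and HNRNPA2B1 with 1 led the hnRNP list. EEF1G and ABCE1 each had 1 site among the elongation and termination factors. EEF1G was not enriched in all replicates under the stricter limits, nor ABCE1 over the external background. The histone genes H3C13 and H2AC20 had 1 each, and H3C13 has near-identical copies.

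**Figure D5:**
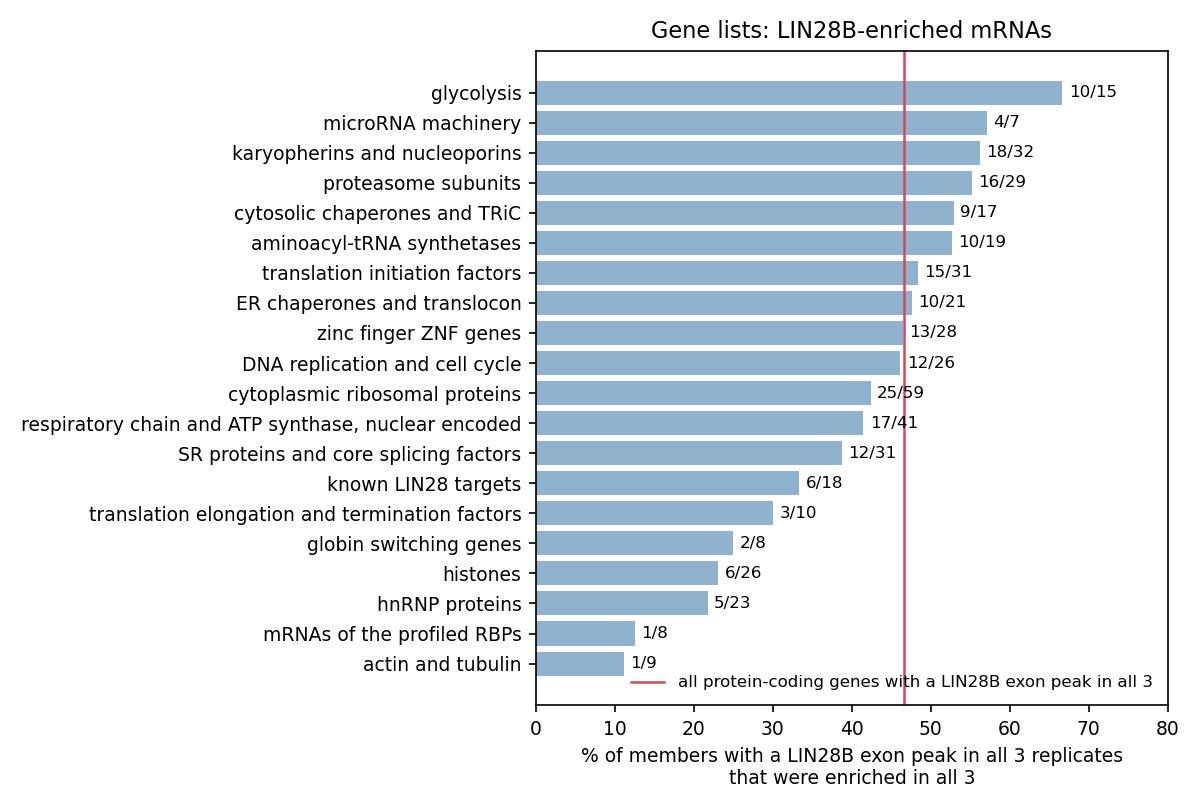
Percent of mRNAs with a tested LIN28B exon peak in all 3 replicates that were enriched in all 3, for each gene list with its number of members, and a vertical line at 46.6% for all protein-coding genes. Glycolysis stands highest at 66.7%, and actin and tubulin lowest at 11.1%, an order that changes with the limits (under the stricter limits karyopherins and nucleoporins stand at 34.4%, glycolysis at 33.3% and translation initiation factors at 35.5%).

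Of 28 mRNAs known as LIN28 targets or partners from earlier work, 18 had an exon peak in all replicates and 6 were enriched in all 3 (33.3%, against 46.6% over all mRNAs). With a fold above 4 the order turned, with 11 of the 18 enriched (61.1%, against 55.4%), and with the stricter limits 3 were (16.7%, against 21.1%). TARDBP, which encodes TDP-43, had 27, 64 and 71 reads and 3 sites, of which 2 in the 3′ UTR. EEF1G, a subunit of elongation factor 1, had 284, 500 and 122 reads and 1 CDS site. Both were read in every replicate, EEF1G with more reads than TARDBP in each.

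CDC20, an activator of the anaphase-promoting complex, had 1 CDS site with 8, 24 and 20 reads in its peaks. IGF1R, the receptor of insulin-like growth factors, had 1 CDS site at low depth, with 13, 10 and 4 reads, and was not enriched in all replicates under the stricter limits or over the external background. DHX9, an RNA helicase known to partner LIN28, was enriched in each replicate with 11, 57 and 50 reads in its peaks, but not at a shared site.

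The other 12 targets with peaks in all replicates were not enriched in all of them. HMGA1, a chromatin protein, had 141, 229 and 183 reads and a highest log2 fold of 1.70, 1.58 and 0.93, and it was enriched for IGF2BP2 in all 3. The LIN28B mRNA itself had 4, 9 and 9 reads and highest log2 folds of 0.94, 2.18 and 3.74, none of them enriched. MYC, CCND2, CDK2 and H2AX had 0 enriched peaks in any replicate. CCNB1, CDK1, HNRNPF, IGF2BP1, IGF2BP2 and TIA1 had an enriched peak in 1 or 2 replicates.

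Of the 10 targets without peaks in all replicates, 6 had no LIN28B exon peak in any: CCND1, HMGA2, IGF2, INSR, IRS2 and LIN28A. TUT4 and TUT7, the uridyltransferases of the let-7 pathway, each had a single enriched peak in replicate 2 at 3 and 4 reads. CDK4 and IGF2BP3 had peaks in replicates 2 and 3, none of them enriched. The levels of these mRNAs in the cells were not measured here.

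Of 16 genes of globin switching, 8 had an exon peak in all replicates and 2 were enriched in all 3 (25.0%, against 46.6% over all mRNAs). Both were transcription factors of early blood cells. With a fold above 4 the count was 4, HBE1 and HBG1 among them (50.0%, against 55.4%). With the stricter limits it was 0, against 21.1% over all mRNAs. MYB had 12, 17 and 11 reads in its peaks, of which 3, 6 and 5 in enriched ones. TAL1 had 16, 34 and 26 reads, of which 6, 17 and 17 in enriched ones. Neither had a shared site.

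Among the globins themselves, HBE1, the embryonic beta-like globin, had the most LIN28B reads, 183, 644 and 318, and was enriched in replicate 2 alone. The fetal globin HBG1 had 98, 227 and 174 reads with highest log2 folds of 3.46, 3.41 and 2.74, enriched in replicates 1 and 2. HBG2 had 59, 100 and 39 reads and was enriched in replicate 1 alone. HBG1 and HBG2 are near-identical, as are HBA1 and HBA2, so their counts are uncertain. HBZ and HBA1 had peaks in all replicates, none of them enriched, and HBA2, HBB and HBD had no peak. BCL11A, the repressor of fetal globin, had no LIN28B exon peak in any replicate. Of the other regulators, LDB1 had peaks in all replicates and GATA1, LMO2 and ZBTB7A in 1 or 2, none enriched, and KLF1 had a single enriched peak of 3 reads in replicate 2.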

How the data were processed

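Per the labels and methods, the authors extracted molecular identifiers, trimmed adapters (cutadapt 2.8), set aside repetitive elements and reads with several mappings, aligned reads to GRCh38 (STAR 2.7.6) and called peaks in each library with CLIPper. They deposited CLIPper p-values with a whole-number display score, and merged peaks with a −log10 P and a log2 fold over an external background that the methods describe as RNA-seq. Against the CC the authors deposited a chi-squared statistic and p-value for replicates 1 and 2, leaving out repeats. For replicate 3 the authors deposited the log2 fold over the CC with its −log10 P, and repeats were not left out. By the methods such a P comes from a chi-squared test or, at small counts, from Fisher's exact test.

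Reads were recovered as whole numbers from the deposited log2 folds, and CC reads in replicates 1 and 2 were solved from the chi-squared statistic. In folds a CC of 0 reads counted as 1. Tested on data simulated from LIN28B replicate 3, CC reads were equal for 97.0% of 14330 peaks, and 100.0% of the enriched peaks were recovered. This simulation used the same formula as the recovery and a known share of the library in the pool, so it does not test these. In replicates 1 and 2 that share was fitted. There, whole CC reads gave back the deposited statistic for 93.1% and 93.3% of the LIN28B peaks. In replicate 3 the peak of the CC list was used for the 257 LIN28B peaks that the lists merged differently. The reads summed over merged LIN28B peaks were 148667, 235803 and 148575, which limits how many weak sites could be called. Regions came from GENCODE 44, and motifs from the genome strand of the peak, so windows at exon ends include intron. A site shared by all replicates has at least 1 base in an enriched peak of each.

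Shares were compared over libraries by an exact permutation test that moves RBP labels inside each replicate (replicate block), two-sided, with the adjustment of Benjamini and Hochberg within a family. The 10 libraries of a sample come from the same lysate, so the replicate numbers pair them. As each CC is made of the other 9 libraries, the shares of a sample are not independent, and the test treats the libraries of an RBP in the 3 replicates as unrelated. Threshold 0.05. Python 3.11.15, numpy 2.4.6, pandas 2.3.3, scipy 1.17.1 and pysam 0.24.0 were used.

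The named items were the hairpins enriched in all replicates, the 10 mRNAs with the most shared sites, the 10 mRNA sites with the highest lowest log2 fold, up to 2 members of each gene list, and all known LIN28 targets and globin switching genes. The 10 sites were taken among those with at least 20 reads in each replicate and not at adapter-like sequence. Some of these are not reported here. The members and lists were chosen with earlier results of these data known. The alternatives tried were other limits, the external background, other regions, windows and overlaps, adapter-like sites left out, leaving out each replicate, and no replicate block. After seeing the data, 1 exact test for all replicates, replicate 3 without peaks in repeats and another order of regions were added. HEK293, singleplex and eCLIP libraries were not used here.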

Additional observations from a re-analysis of the deposited data

How the results depend on the processing

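Depth limits the calls, as the median enriched peak held 5 or 6 reads. With stricter limits (P below 1e-05 and fold above 16), 2686 peaks per replicate, 666 shared sites and 583 mRNAs were enriched, and 2 motif comparisons no longer passed the exact permutation test, GGAGA (7.56 percentage points, adjusted p = 0.116) and GGAG in the CDS (12.1 points, p = 0.218). IGF1R, EEF1G, DHX9, MYB, TAL1, TUBB and MIR19B1 were then not enriched in all replicates. With a fold above 4 CCND2, CDK1, HNRNPF, IGF2BP1, IGF2BP2, HBE1 and HBG1 were enriched in all replicates, and the difference in noncoding exons turned to -0.31 points. With the external background there were 2573 shared sites, 16 hairpins, 18 of 20 gene lists above the share over all genes and a mean overlap of 58.8%, and the differences in noncoding exons and hairpins turned to -3.06 and -0.0215 points. IGF1R, ABCE1 and PSMC4 were then not enriched in all replicates. These small differences of noncoding exons and hairpins did not pass the test under any of these settings. With the region at the centre base, the CDS difference of 39.8 points passed (adjusted exact permutation p = 0.01) and GGAG in the CDS did not (11.6 points, p = 0.055). In the wider window of the peak and 50 nt on both sides, GGAG (14.0 points, adjusted exact permutation p = 0.077), TGAT (12.7 points, adjusted p = 0.075) and GGAG in the CDS (9.03 points, p = 0.143) did not pass. The cause of these changes was not tested.

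Leaving out 1 replicate, with sites asked for in both others, gave 1709 to 2337 shared sites, the highest without replicate 3, 1421 to 1835 mRNAs, 9 to 11 hairpins and 4560.5 to 6024 peaks per replicate. With 2 replicates the smallest p is 0.01. The differences ran from 17.2 to 17.7 points for GGAG, 8.63 to 9.04 for GGAGA and 14.1 to 14.9 for GGAG in the CDS, and these 3 did not pass without replicate 1 or without replicate 2 (exact permutation, adjusted p of at most 0.0625, 0.08 and 0.08). The differences for TGAT, for AAGGAG and for AAGNNG passed without each replicate. Without the replicate block, over 4060 choices of libraries, the CDS difference of 31.0 points had an adjusted exact permutation p = 0.239, GGAG kept 17.4 points with 0.0105 and no call changed. Of the calls of single named genes, hairpins and sites under all alternatives, 1195 were as reported, 16 were lost and 23 gained. Of 200 counts of gene list members under the alternatives, 46 moved by over 1.5 times. The adapter-like setting lost NDUFS1, and the single exact test, chosen after seeing the data, lost MYB. Leaving out repeats by soft-masked sequence was not run, as the genome used here is not soft-masked.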

Other observations

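At the strongest LIN28B sites the CC was never empty. At the 31 shared sites with at least 100 LIN28B reads in each replicate, the reads of the CC came to a median of 16.1%, 17.8% and 17.6% of the LIN28B reads in replicates 1 to 3, and to no less than 9.62%, 11.5% and 8.73%. At the 264 shared sites with at least 20 reads in each replicate the median was 35.6%, 39.9% and 48.0%, and the lowest 0%, 0% and 4.35%. The highest log2 fold over the CC was 7.40, 7.24 and 7.67 at the 31 sites. From which of the other 9 barcodes the CC reads at these sites came was not tested.

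In all, 27 hairpins were enriched for LIN28B in at least 1 replicate, 9 of them in all 3. Among those 9, MIR3620 had the most LIN28B reads of the 3 outside the let-7 family. The other RBPs had a single called peak of 3 reads on it, but the CC held 23, 15 and 14 reads in its LIN28B peak in replicates 1 to 3.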
